A study of Mus musculus with 17 samples.

Results

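The genes described here encode collagen and laminin chains, the matrix metalloproteinases (Mmp) and their tissue inhibitors (Timp), the lysyl oxidases and the ADAMTS proteinases. They were chosen by name pattern among the protein-coding genes of the deposited table, which gave 104 of its 42794 genes. Of these, 39 had a mean FPKM (fragments scaled to gene length and to a total set per library) of 1 or more over all libraries, and they are called the expressed matrix genes. The other 65 were below that level. Just inside it were Col5a1 at a mean of 1.05 and Mmp2 at 1.05 FPKM, and just outside were Adamts6 at 0.970 and Loxl2 at 0.890 FPKM. Without the library Ctr shRNA 20, which stood apart, 37 genes reached it, since Lamb3 then stood at 0.815 and Mmp2 at 0.985 FPKM.

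RNA from whole mouse kidney was sequenced in 17 libraries in a study of glucagon and lipid metabolism in the proximal tubule in diabetic kidney disease. The control group had 4 libraries of wild-type genotype, titled NC. The Ctr shRNA group had 6 libraries, whose genotype reads Ctr shRNA and whose titles read DKD_Vehicle, so the labels leave it uncertain which of the 2, hairpin or vehicle, was given. A group of 7 libraries is labelled Gcgr shRNA and titled DKD_shRNA, and its hairpin targets the glucagon receptor gene in proximal tubule epithelium. These are called the Gcgr-labelled libraries, because Gcgr was not lower in them than in Ctr shRNA. The abbreviation DKD is in the titles of these 2 groups and not of the control group, so hairpin or vehicle and disease cannot be told apart in a comparison with control. The sources used here do not give age, sex, delivery of the hairpin or the way disease was induced. Since no label names the animal behind a library, the p-values reflect only the variation among these samples, which may be technical. Libraries are named by group and by the number in their title.

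The interstitium of the kidney is held by fibrillar collagens, chiefly collagens I, III and V, which fibroblasts and pericytes secrete and lysyl oxidases crosslink. Tubules, vessels and glomeruli rest on basement membranes, sheets of collagen IV and laminin, and laminins are trimers of an alpha, a beta and a gamma chain. Metalloproteinases and ADAMTS proteinases cut these proteins, TIMPs inhibit the cutting, and an excess of interstitial collagen is the hallmark of renal fibrosis.

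Recovered reads ranged from 13997657 to 17107876 per library, and 12183 to 12919 genes reached an FPKM of 1. Gcgr, the target of the hairpin, was at 20.8 ± 2.42 FPKM (SD) over the 4 controls, 9.74 ± 2.14 over the 6 Ctr shRNA and 13.02 ± 1.70 over the 7 Gcgr-labelled libraries, above Ctr shRNA. The library Ctr shRNA 20 was high in markers of fat and urothelium. Its 9 fat cell markers summed to 718 FPKM against at most 54.8 in the other 16 libraries, and its 10 urothelial markers to 344 against at most 19.5. Several values that rest on it are given with and without it. Kidney epithelium was present in every library: 10 proximal tubule markers summed to 3876 to 4976 FPKM in control, 2556 to 3514 in Ctr shRNA and 2825 to 3881 in the Gcgr-labelled libraries.

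Collagen IV genes lie head to head in the genome, with their starts side by side on opposite strands, and the sequence between one such pair is shown because both genes of the pair lay below every control library in 5 of the 6 Ctr shRNA libraries. Col4a4 (GRCm38 chromosome 1, 82448423 to 82586849, minus strand) and Col4a3 (82586921 to 82722059, plus strand) are separated by 71 bases at chr1:82586850-82586920. The sequence is from the RefSeq promoter table (GRCm38.p6). It is read 5′ to 3′ on the minus strand, in the direction of Col4a4, with CG dinucleotides in capitals.
Between Col4a4 and Col4a3: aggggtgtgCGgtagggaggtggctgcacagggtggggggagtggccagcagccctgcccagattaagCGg
The stretch was 69.0% G or C, above the median of 54.9% over the 32851 promoter windows of the same length and position, and held 2 CG dinucleotides. On both strands it held 0 matches to the CCAAT box (CCAAT, present in 13.3% of the windows), the GC box (GGGCGG, in 20.7%), the TATA box (TATAAA, in 4.41%) and the E box (CANNTG, in 25.1%), and so no overlap between these motifs. A further pair, Col4a1 (chromosome 8, 11198423 to 11312826, minus strand) and Col4a2 (11312805 to 11449287, plus strand), overlaps by 22 bases at its starts. Reads in that overlap cannot be assigned without strand information, which the sources used here do not give.

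By level, the leading matrix transcripts were those of 1 inhibitor, of collagen IV and Col18a1 in basement membranes, and of the fibrillar gene Col27a1. Timp3, an inhibitor that stays bound to the matrix, was the highest at 103 FPKM over all 17 libraries. Next came Col4a1 at 32.9 and Col18a1, the source of endostatin, at 28.7 FPKM. Col4a2 followed at 26.8, Col27a1 at 24.2, Col4a4 at 20.8 and Col4a3 at 18.4 FPKM. Among laminin chains, Lama5 at 14.8 and Lamb1 at 14.1 FPKM led. The interstitial genes were lower, with Col1a1 at 4.82, Col1a2 at 3.41 and Col3a1 at 3.33 FPKM. By class, 7 of 11 fibrillar collagens, 5 of 6 collagen IV genes, 3 of 9 collagen VI and other beaded or anchoring collagens, 2 of 9 fibril-associated collagens and both multiplexins were expressed. All 3 laminin beta chains were, and 3 of 5 alpha chains. The remodelling enzymes were sparser: 3 of 15 secreted and 1 of 6 membrane-type metalloproteinases, 1 of 5 lysyl oxidases and 3 of 19 ADAMTS genes, against 3 of 4 TIMPs. None of the 3 short-chain or 4 transmembrane collagens reached the level.

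**Figure D1:**
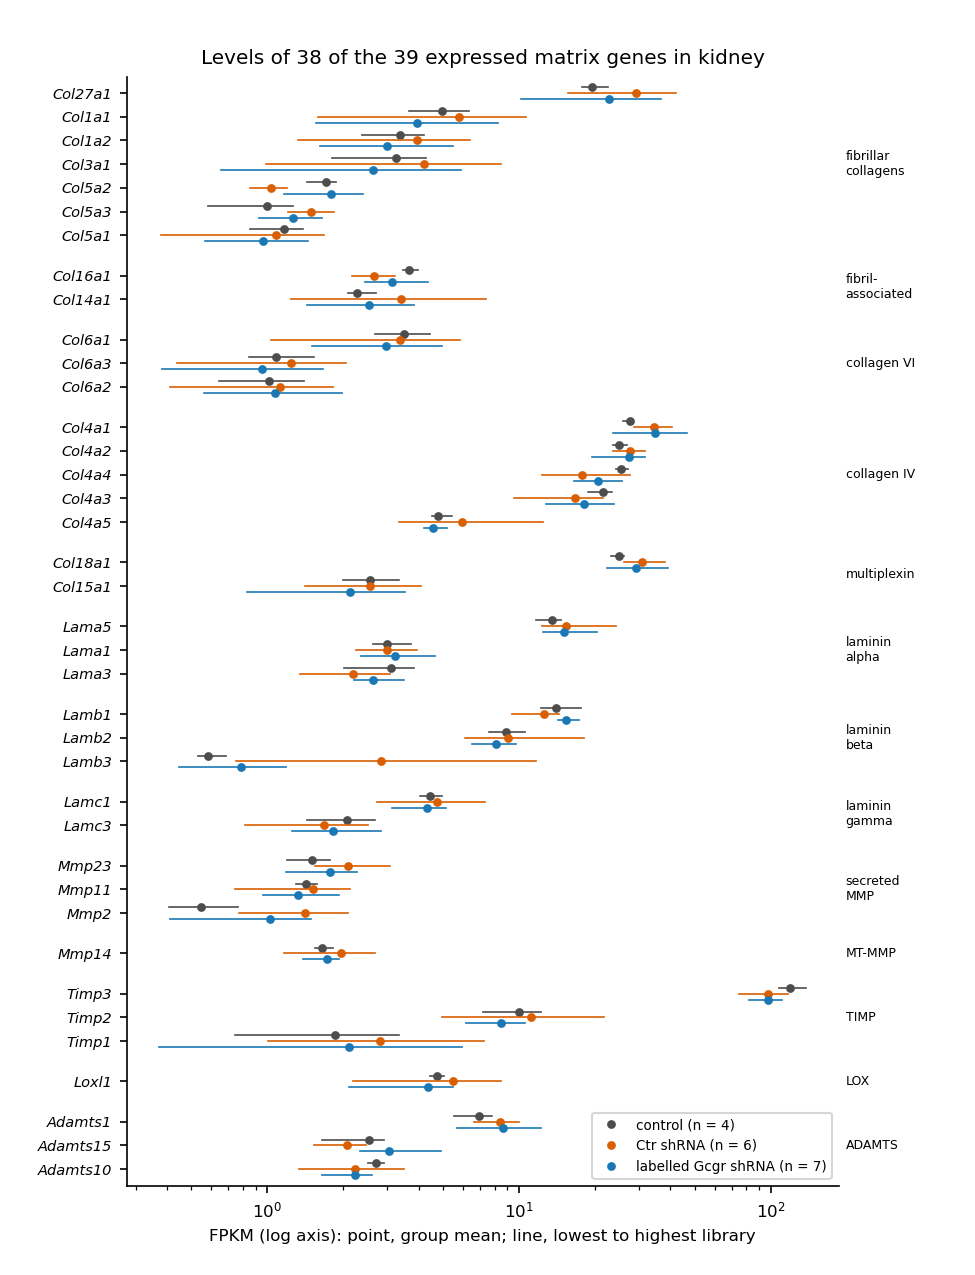
Mean FPKM (points, log axis) and the lowest to highest library (lines) of 38 of the 39 expressed matrix genes in the control (n = 4), Ctr shRNA (n = 6) and Gcgr-labelled libraries (n = 7), by class. Col4a1, Col4a2 and Timp3 are high with short lines, and Col1a1, Col3a1 and Timp1 are low with long lines that overlap between the groups.

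The first comparison, Ctr shRNA against control, shows matrix genes in kidneys titled with the disease abbreviation against wild-type kidneys. Of the 39 expressed matrix genes, 2 fell, the fibrillar collagen gene Col5a2 and the basement membrane gene Col4a4, and 0 rose at an adjusted p under 0.05 (limma, Benjamini-Hochberg over 13279 genes). Col1a1, Col1a2 and Col3a1, the main fibrosis collagens, did not pass. That is 5.13% of the matrix genes, against 7.49% of all genes tested, 3.58% higher and 3.91% lower. At an unadjusted p under 0.05 there were 10 of 39 matrix genes, against 23.4% of all genes. Differences are in mean log2(FPKM + 1), a scale that understates changes of low genes. Their median over the matrix genes was 0.04, with 23 above and 16 below 0, beside a median of 0.01 over all genes. The 23 include Lamb3 and Mmp2 and the 10 include Mmp2, and both genes are among the 39 only through Ctr shRNA. With 1 library left out the median over the matrix genes ran from -0.05 (15 above and 24 below 0) without Ctr shRNA 20 to 0.16 (27 and 12) without Ctr shRNA 4. It was below 0 also without control 38, Ctr shRNA 6 or Ctr shRNA 8, 0.15 without Ctr shRNA 19 and 0.11 without control 39, so it had no stable sign. The same 2 genes were lower without Ctr shRNA 20.

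Col5a2 encodes a chain of collagen V, which nucleates collagen I fibrils (ENSMUSG00000026042, GRCm38 chromosome 1, 45374321 to 45503282, minus strand). Its level in control 37, 38, 39 and 41 was 1.43, 1.85, 1.87 and 1.69 FPKM. In Ctr shRNA it ran from 0.855 in library 6 through a median of 1.03 to 1.20 in library 20. In the Gcgr-labelled libraries it ran from 1.16 in library 32 through a median of 1.87 to 2.40 in library 29. All 6 Ctr shRNA libraries were below all 4 controls, and of the Gcgr-labelled libraries 32 alone lay among the Ctr shRNA values, with the other 6 at 1.58 FPKM or more. The difference from control was -0.41 ± 0.11 (SE; adjusted p = 0.0250 by limma). Between 137 and 336 reads per library lay behind these levels. The result is near the threshold. It passed in 20 of 26 alternatives, with adjusted p from 0.00689 to 0.0887, and was lost without control 38 (0.0856), control 39 (0.0887), control 41 (0.0509) or Ctr shRNA 6 (0.0505).

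The other fibrillar genes gave no common direction. Col5a3 was at 0.994 ± 0.294 FPKM in control (SD, n = 4) and 1.49 ± 0.250 in Ctr shRNA (n = 6), a difference of 0.33 ± 0.12 (adjusted p = 0.111 by limma). Its partner Col5a1 differed by -0.10 ± 0.19. Col27a1, a fibrillar collagen first known from cartilage, was at 19.5 ± 2.17 FPKM in control (n = 4) and 29.2 ± 10.5 in Ctr shRNA (n = 6), a difference of 0.49 ± 0.32 (adjusted p = 0.384 by limma). Its 6 Ctr shRNA values reached from 15.7 in library 20 to 42.1 in library 1 and enclosed all controls. For Col1a1 the difference was -0.04, with a 95% interval of -1.01 to 0.93. For Col3a1 it was 0.06, with an interval of -0.94 to 1.06, and for Col1a2 0.05, with -0.62 to 0.73. Differences inside these intervals were not detectable in these libraries. Ctr shRNA 20 was the highest library for Col1a1, Col3a1 and Col1a2. Without it their Ctr shRNA means were 4.81, 3.35 and 3.44 FPKM, in place of 5.79, 4.21 and 3.93. In control these genes were at 4.93, 3.24 and 3.37 FPKM. The median difference over the 7 expressed fibrillar genes was 0.05, and -0.16 without Ctr shRNA 20.

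Col4a4 (ENSMUSG00000067158) encodes a chain of the collagen IV network of the mature glomerular basement membrane, which its neighbour Col4a3 and Col4a5 complete. Its level in control 37, 38, 39 and 41 was 24.3, 27.1, 26.5 and 24.2 FPKM. In Ctr shRNA it was lowest in library 4 at 12.4, had a median of 16.95 and was highest in library 20 at 27.6 FPKM. In the Gcgr-labelled libraries it ran from 16.5 in library 13 through a median of 20.3 to 25.8 in library 29. All Ctr shRNA libraries except 20 were below all controls, and 20 was above them. The difference from control was -0.53 ± 0.15 (adjusted p = 0.0442 by limma), and -0.66 ± 0.12 (adjusted p = 0.00271) without Ctr shRNA 20. This call was the less stable of the 2. It passed in 8 of 26 alternatives, with adjusted p from 0.00116 to 0.140, and leaving out any 1 control library, Ctr shRNA 1, 4, 6 or 8, or library 15, 31, 32, 34 or 35 of the Gcgr-labelled group ended it (adjusted p from 0.0515 to 0.123).

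Col4a3 lay in the same direction at 21.5 ± 1.98 FPKM in control (SD, n = 4) and 16.6 ± 3.89 in Ctr shRNA (n = 6), a difference of -0.38 ± 0.17 that did not pass (adjusted p = 0.190 by limma; 0.104 without Ctr shRNA 20). Its lowest value was 9.60 FPKM in Ctr shRNA 4, and without library 20 the groups did not overlap. Col4a5, the third chain of that network, was at 4.76 ± 0.427 and 5.94 ± 3.27 FPKM. Its Ctr shRNA mean was 4.64 without library 20, where the gene stood at 12.5 FPKM. Podocytes, the glomerular cells that make this network, had 8 measured markers, which summed to 43.7 to 45.7 FPKM in control and 33.2 to 54.96 in Ctr shRNA. None of the 7 tested passed, and the part of podocytes in the result for Col4a4 was not tested. In bulk RNA, fewer cells of a type and less RNA per cell cannot be told apart.

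Markers of other cells moved in the same comparison. Of 10 tested proximal tubule markers 6 fell, and of 7 markers of later nephron segments 6 fell. These counts were 4 and 6 without Ctr shRNA 20. The later segment markers summed to 1135 to 1570 FPKM in control and 673 to 1245 in Ctr shRNA. The highest Ctr shRNA sum was that of library 20, where Aqp2 alone was at 850 FPKM, and without it the highest was 1133 FPKM. The 10 macrophage markers summed to 72.6 to 96.9 FPKM in control and 73.7 to 178 in Ctr shRNA, with 2 of 9 tested higher and 1 lower. None of 10 fibroblast and pericyte markers passed, with sums of 31.6 to 38.5 and 30.2 to 45.6 FPKM. None of 10 endothelial markers passed, with sums of 109 to 116 and 82.1 to 188 FPKM. No marker in any of these lists was at 0 in every library. Whether these shifts have a part in the results for Col4a4, Col5a2 and the other matrix genes was not tested.

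**Figure D2:**
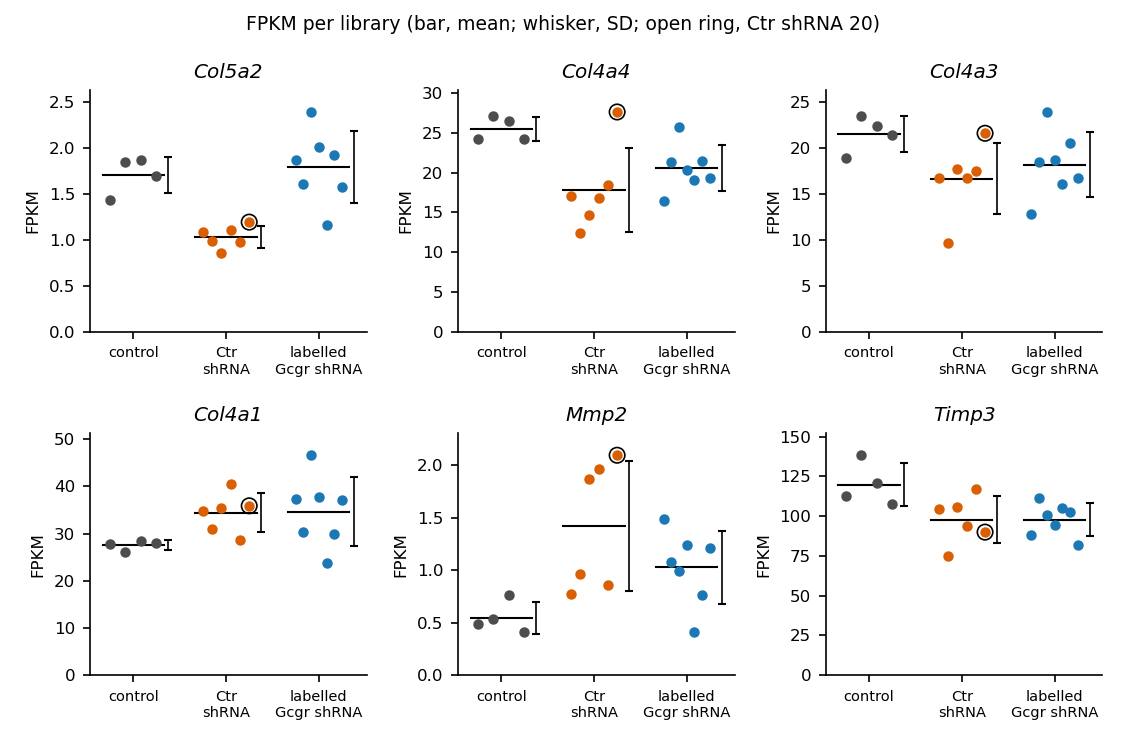
FPKM in each library for 6 matrix genes in the control, Ctr shRNA and Gcgr-labelled libraries, with the group mean (bar), SD (whisker) and Ctr shRNA 20 ringed. For Col5a2 all 6 Ctr shRNA points lie below the 4 controls, and for Col4a4 the ringed point at 27.6 FPKM is the only Ctr shRNA point above the lowest control.

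The pair of Col4a1 and Col4a2 pointed the opposite way. Col4a1, part of the collagen IV of nearly every basement membrane, was at 27.9, 26.0, 28.4 and 27.9 FPKM in control 37, 38, 39 and 41. In Ctr shRNA it ran from 28.7 in library 19 through a median of 35.2 to 40.6 in library 8. In the Gcgr-labelled libraries it ran from 23.7 in library 32 through a median of 37.1 to 46.6 in library 29. Every Ctr shRNA library was above every control, narrowly for library 19. The difference of 0.30 ± 0.14 did not pass (adjusted p = 0.194 by limma). Its partner Col4a2 differed by 0.14 ± 0.12 (adjusted p = 0.521 by limma).

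Separation of the groups was counted as well. In Ctr shRNA against control, 6 of 39 matrix genes had ranges that did not overlap, where 10.1% of all genes tested did. Col4a1, Col18a1, Lamb3 and Mmp2 lay higher (4.71% of all genes) and Col5a2 and Col16a1 lower (5.41% of all genes). Lamb3 and Mmp2 are among the 39 only through Ctr shRNA, the group where they are high, so the count of higher genes supports nothing about the matrix genes. Without Ctr shRNA 20 there were 8, with Col4a3 and Col4a4 added to the lower ones, against 13.8% of all genes (6.98% higher and 6.84% lower). Col16a1, a fibril-associated collagen, was at 3.64 ± 0.233 FPKM in control (SD, n = 4) and 2.67 ± 0.451 in Ctr shRNA (n = 6), a difference of -0.35 ± 0.13 (adjusted p = 0.105 by limma). Col18a1 was at 24.9 ± 1.31 and 30.8 ± 4.63 FPKM, a difference of 0.29 ± 0.14 (adjusted p = 0.234 by limma).

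**Figure D3:**
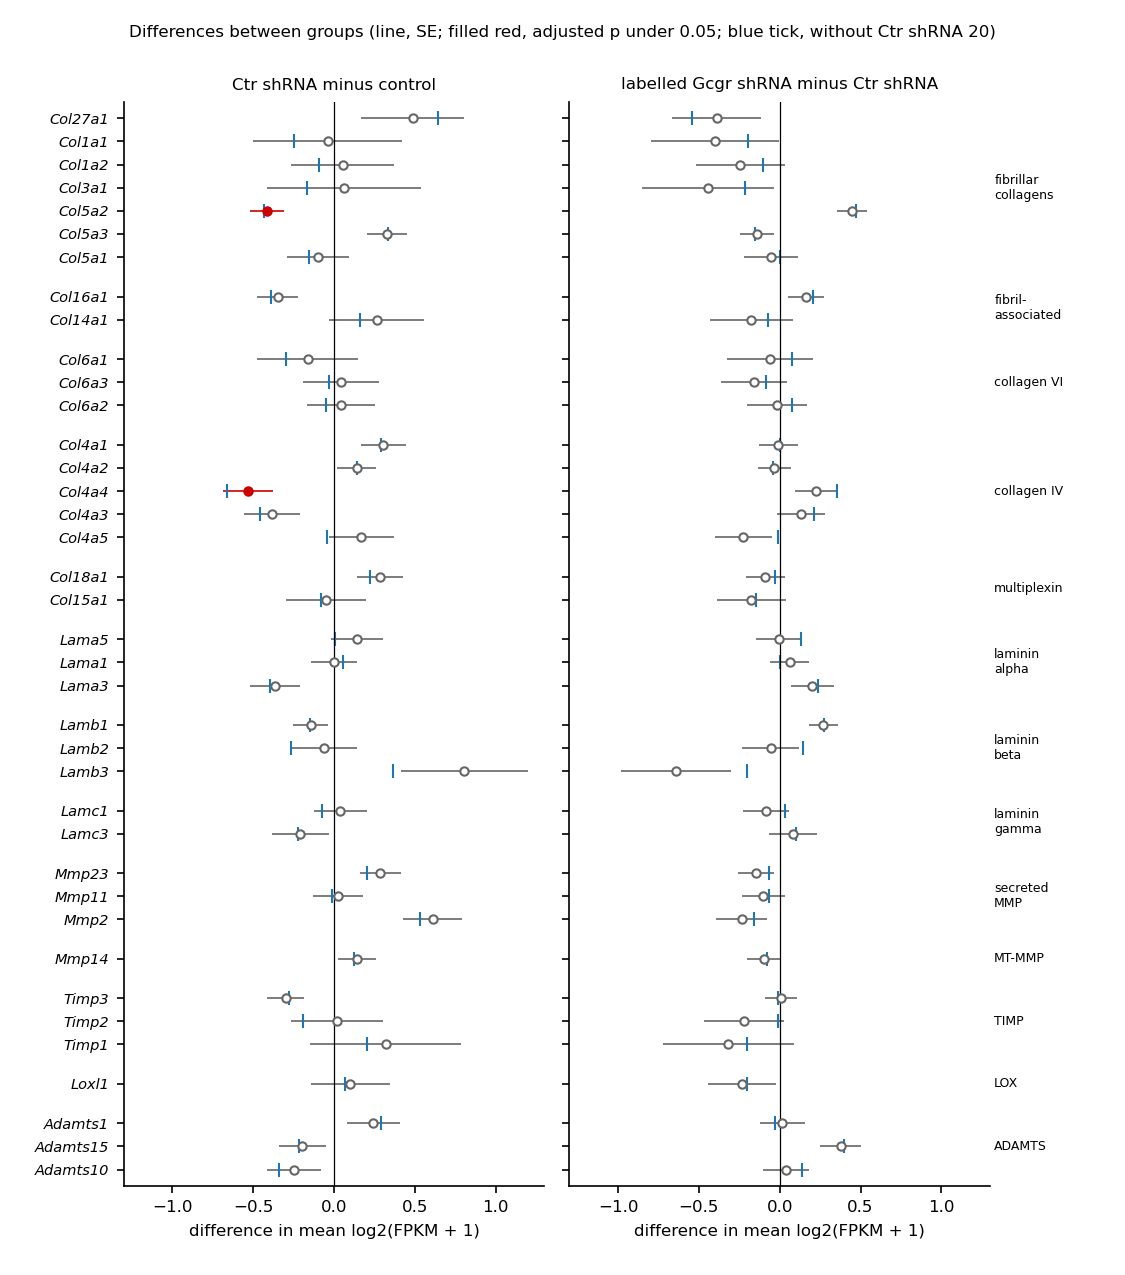
Differences in mean log2(FPKM + 1) with SE for 38 of the 39 expressed matrix genes, Ctr shRNA minus control (left) and the Gcgr-labelled libraries minus Ctr shRNA (right), with the value without Ctr shRNA 20 as a tick. Only Col5a2 and Col4a4 on the left have an adjusted p under 0.05, and for Lamb3, Col4a5, Lamb2 and Timp2 the tick lies far from the point.

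Among laminins none of the 9 expressed chains passed. Lama3, a chain of laminins in epithelial anchoring, was at 3.11 ± 0.821 FPKM in control (SD, n = 4) and 2.19 ± 0.627 in Ctr shRNA (n = 6), a difference of -0.36 ± 0.16 (adjusted p = 0.164 by limma). Lama5, the alpha chain of most adult kidney basement membranes, was at 13.5 ± 1.25 and 15.4 ± 4.67 FPKM. Its difference of 0.14 became 0.01 without Ctr shRNA 20. Lamb2, the beta chain of the mature glomerular membrane, differed by -0.06, and by -0.27 without that library. Lamc1, the commonest gamma chain, was at 4.43 ± 0.381 and 4.74 ± 1.53 FPKM, the latter 4.22 ± 0.958 without Ctr shRNA 20. Lamb3, a partner of Lama3 in the laminin of stratified and urothelial lining, was at 0.544, 0.532, 0.687 and 0.555 FPKM in the controls. It was at 0.751 to 1.35 FPKM in 5 Ctr shRNA libraries and at 11.7 in the sixth, Ctr shRNA 20, which is 8.67 times the highest other library. The groups stayed apart without that library, and the difference was then 0.36 ± 0.13 (adjusted p = 0.0856 by limma). Lamb3 is among the expressed matrix genes only through Ctr shRNA, the group where it is high. Its values therefore support nothing about the matrix genes.

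Among the degrading enzymes Mmp2 came nearest to the threshold. It is among the expressed matrix genes only through Ctr shRNA, the group where it is high. That selection favours a rise in Ctr shRNA, so its values support nothing about the matrix genes. Mmp2, a gelatinase that stromal cells secrete, was at 0.481, 0.531, 0.762 and 0.406 FPKM in the controls. In Ctr shRNA it ran from 0.770 in library 1 through a median of 1.41 to 2.09 in library 20, and in the Gcgr-labelled libraries from 0.411 through 1.07 to 1.49. All 6 Ctr shRNA libraries were above all controls, although library 1 at 0.770 and control 39 at 0.762 FPKM nearly met. The difference was 0.61 ± 0.18 (adjusted p = 0.0505 by limma), and 0.53 ± 0.18 (adjusted p = 0.0815) without Ctr shRNA 20. It passed in 6 of 26 alternatives, with adjusted p from 0.00921 to 0.126, and 21 to 133 reads lay behind each value. Leaving out Ctr shRNA 1, Ctr shRNA 19 or Gcgr-labelled library 32 brought it past the threshold, at 0.0328, 0.0299 and 0.0368. Mmp23 was at 1.51 ± 0.238 and 2.09 ± 0.540 FPKM (0.29 ± 0.13, adjusted p = 0.188 by limma). Its Ctr shRNA mean was 1.89 ± 0.283 FPKM without Ctr shRNA 20. Mmp11 was at 1.43 ± 0.135 and 1.52 ± 0.542 FPKM. Mmp14, which anchors in the cell membrane and activates the Mmp2 proenzyme, was at 1.65 ± 0.129 and 1.96 ± 0.524 FPKM (0.14 ± 0.12, adjusted p = 0.494 by limma).

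The inhibitors did not pass. Timp3 was at 113, 138, 121 and 108 FPKM in control 37, 38, 39 and 41 and at 74.7 to 117 in Ctr shRNA, with a median of 99.3. The ranges overlapped, and the difference was -0.30 ± 0.12 (adjusted p = 0.126 by limma; from 0.0523 to 0.338 over 26 alternatives). Timp2 was at 9.97 ± 2.21 FPKM in control (SD, n = 4) and 11.2 ± 6.15 in Ctr shRNA (n = 6), the latter 9.02 ± 3.62 without library 20. Timp1, which is induced in injured kidney, was at 1.87 ± 1.31 and 2.80 ± 2.43 FPKM, with 7.24 FPKM in Ctr shRNA 8 and 1.00 in Ctr shRNA 6. Loxl1, a lysyl oxidase of elastic fibres, was at 4.73 ± 0.265 and 5.49 ± 2.21 FPKM. Adamts1, a proteinase of versican and aggrecan, was at 6.92 ± 1.13 and 8.41 ± 1.53 FPKM, and Adamts15 at 2.55 ± 0.601 and 2.07 ± 0.322.

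The second comparison asked what the hairpin against Gcgr did beside Ctr shRNA, with the caution that Gcgr was not lower in the Gcgr-labelled libraries. None of the 39 matrix genes passed, and 0 of 13279 genes passed (0% called by limma). At an unadjusted p under 0.05 there were 3 of 39 matrix genes, against 972 of all genes (7.32%), and limma voom on the recovered reads also called 0. The smallest p was that of Col5a2, whose levels are given above, with a difference of 0.45 ± 0.09 (unadjusted p = 0.000127, adjusted p = 0.125 by limma; adjusted p from 0.0847 to 0.381 over 26 alternatives). The ranges overlapped through Gcgr-labelled library 32 at 1.16 and Ctr shRNA 20 at 1.20 FPKM. Without Ctr shRNA 20 they did not overlap, 1 of 39 matrix genes, higher in the Gcgr-labelled libraries, against 0.361% of all genes (0.151% higher and 0.211% lower). With all libraries 0 of 39 were apart, against 0.203% of all genes (0.105% higher and 0.0979% lower). This comparison shares the Ctr shRNA libraries with the first, so the opposite signs of Col5a2 in the 2 comparisons are not independent.

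Next by p were Adamts15 and Lamb1. Adamts15, a proteinase that cuts versican, had a median of 2.11 FPKM in Ctr shRNA and 2.75 in the Gcgr-labelled libraries, whose highest was library 34 at 4.91 (0.38 ± 0.13, adjusted p = 0.477 by limma). Lamb1, the beta chain of many basement membranes, was at 9.38 to 14.4 FPKM in Ctr shRNA and 14.3 to 17.4 in the Gcgr-labelled libraries (0.27 ± 0.09, adjusted p = 0.477 by limma). Only Ctr shRNA 1 reached into the upper group's range. The largest negative differences by p were Lamb3 at -0.64 ± 0.34 (-0.20 without Ctr shRNA 20), Mmp2 at -0.24 ± 0.16 and Col27a1 at -0.39 ± 0.28, with adjusted p of 0.713, 0.797 and 0.807 by limma. Lamb3 and Mmp2 are among the expressed matrix genes only through Ctr shRNA, which favours these negative signs. The median over the 39 genes was -0.06, with 13 above and 26 below 0. With 1 library left out the median ran from -0.14 (11 above and 28 below 0) without Ctr shRNA 19, and -0.13 (9 and 30) without Ctr shRNA 4, to -0.01 (18 and 21) without Ctr shRNA 20 and -0.01 (17 and 22) without Gcgr-labelled library 32. For Col1a1 the 95% interval was -1.24 to 0.43, and for Col3a1 -1.31 to 0.42. The median difference over the 7 expressed fibrillar genes was -0.24, and -0.15 without Ctr shRNA 20.

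The third comparison set the Gcgr-labelled libraries against control. None of the 39 matrix genes passed, where 2.02% of all genes did by limma (1.42% higher and 0.595% lower), and 0 of 39 had ranges that did not overlap, against 5.54% of all genes (3.31% higher and 2.23% lower). At an unadjusted p under 0.05 there were 3 of 39, against 16.2% of all genes. These were Timp3 at -0.29 ± 0.11 (adjusted p = 0.208 by limma), Col4a1 at 0.30 ± 0.13 (0.287) and Mmp2 at 0.37 ± 0.18 (0.308). Mmp2 was at 0.545 FPKM in control, so the mean level it had to reach favours a rise against control. The next smallest p-values in their directions were those of Col4a4 at -0.31 ± 0.15 (0.321), Adamts1 at 0.26 ± 0.16 (0.432) and Col16a1 at -0.19 ± 0.12 (0.480). Control libraries are shared with the first comparison and the labelled libraries with the second. For Col5a2 the difference from control was 0.03, with a 95% interval of -0.18 to 0.25. The median over the 39 genes was -0.04, with 18 above and 21 below 0, and ran from -0.08 without control 41 to 0.01 without Gcgr-labelled library 35 when 1 library was left out.

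Spread among replicates was wide for interstitial genes. Over the 39 matrix genes the median SD within groups was 0.25 on the log2(FPKM + 1) scale without Ctr shRNA 20, against 0.16 over all genes tested. For Col3a1 this SD was 0.77 and for Col1a1 0.75. Over the 3 groups together and without Ctr shRNA 20, the highest library exceeded the lowest 19.5-fold for Timp1, where 5 reads stood against 110. This span, which also holds differences between groups, was 11.7-fold for Col3a1, 6.44-fold for Col1a1, 5.92-fold for Col14a1 and 5.64-fold for Col6a1. By contrast Col4a5 spanned 1.61-fold and Col4a2 1.63-fold in those 16 libraries.

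The interstitial collagen genes shared their high and low libraries in part. Col1a1 was at 5.54, 3.67, 6.34 and 4.18 FPKM in control 37, 38, 39 and 41. In Ctr shRNA it ran from 1.59 in library 4 through a median of 5.22 to 10.7 in library 20, and in the Gcgr-labelled libraries from 1.56 in library 32 through 2.58 to 8.22 in library 31. Libraries 6, 8 and 20 of Ctr shRNA and 29 and 31 of the Gcgr-labelled group were the high ones for Col1a1, and the shRNA groups also held low ones. Col3a1 had the same high libraries, with 8.51 FPKM in Ctr shRNA 20, 7.64 in Ctr shRNA 8 and 5.89 in Gcgr-labelled library 29, and its lowest was 0.652 in Gcgr-labelled library 32.

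Ctr shRNA 20 was the highest library for 12 of 39 matrix genes (30.8%, against 13.1% of all genes), and Ctr shRNA 6 for 7 (17.9%, against 5.66%). The 12 include Lamb3 and Mmp2, which are among the 39 only through Ctr shRNA 20, so the selection favours that count. Ctr shRNA 4 was the lowest for 15 (38.5%, against 10.6%) and Gcgr-labelled library 32 for 10 (25.6%, against 5.56%). Fibroblast and pericyte markers summed to 45.6 FPKM in Ctr shRNA 6, 45.3 in Ctr shRNA 20 and 43.7 in Gcgr-labelled library 29, the 3 highest of all 17. In library 29 a single marker, Nt5e, held 19.1 FPKM of the sum, against at most 13.6 in any other library. Ctr shRNA 8 and Gcgr-labelled library 31, also high in Col1a1, summed to 35.4 and 36.1 FPKM. The same markers summed to 26.6 FPKM in Gcgr-labelled library 32, the lowest. Next were Gcgr-labelled libraries 34 at 28.4 and 13 at 30.1, and Ctr shRNA 4 at 30.2 FPKM. Smooth muscle and myofibroblast markers were highest in Ctr shRNA 20 at 64.7 and Ctr shRNA 8 at 39.9 FPKM, and lowest in Ctr shRNA 4 at 22.3 and Gcgr-labelled library 32 at 22.6. The part of these cells in the spread of Col1a1, Col3a1 and Timp1 was not tested.

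**Figure D4:**
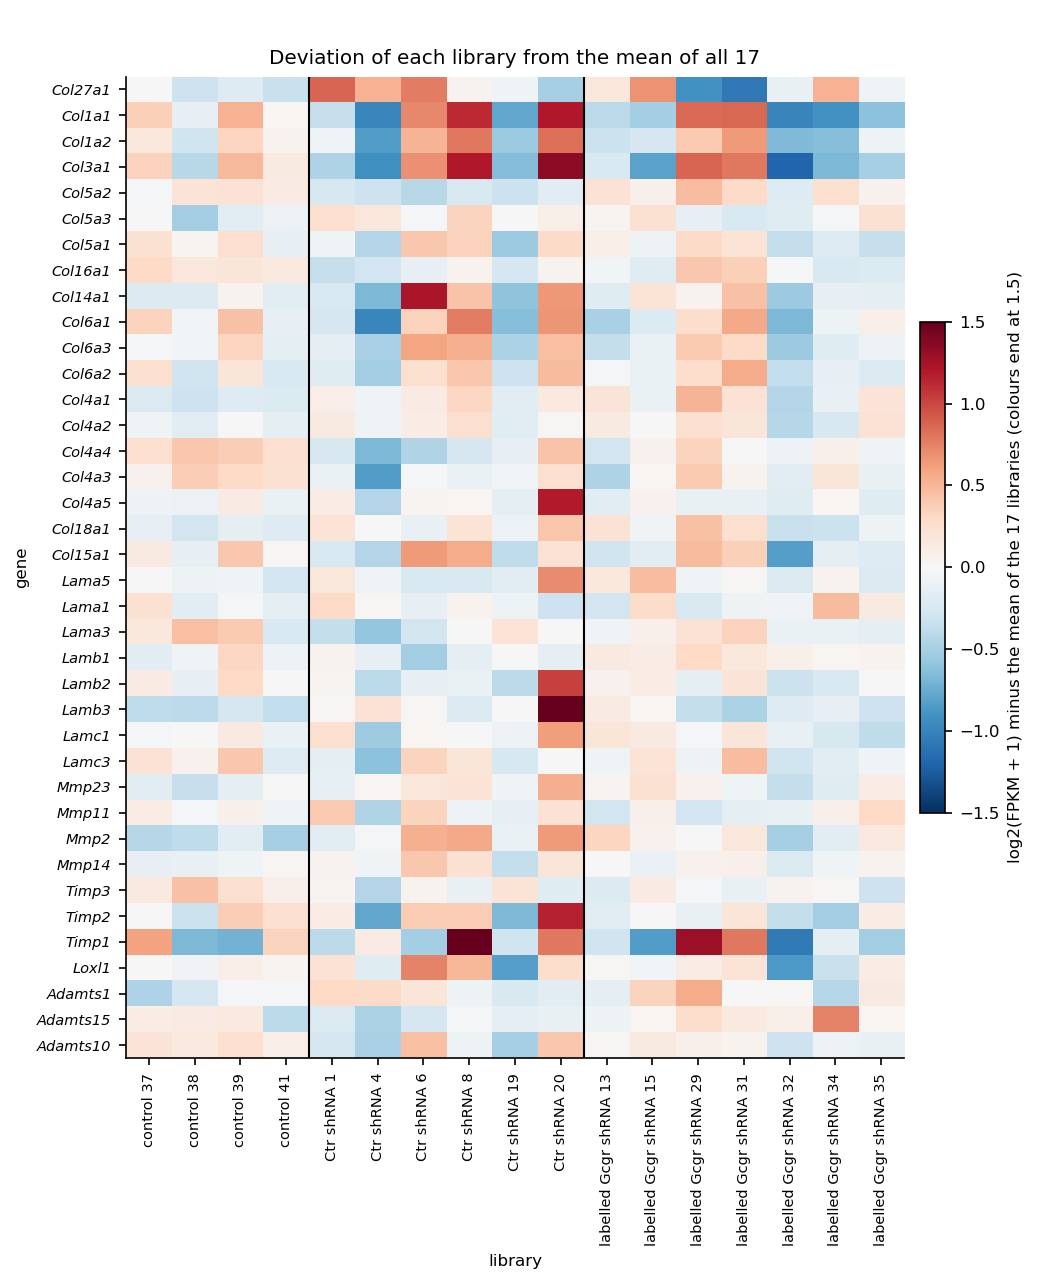
Deviation of log2(FPKM + 1) from the mean of all 17 libraries for 38 of the 39 expressed matrix genes, 1 column per library and groups divided by lines. Ctr shRNA 4 and 19 and Gcgr-labelled library 32 are blue, and Ctr shRNA 6, 8 and 20 and the Gcgr-labelled libraries 29 and 31 red, across Col1a1, Col1a2, Col3a1 and Col6a1. Gcgr-labelled library 34 is also blue for Col1a1, Col1a2 and Col3a1.

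Neighbouring collagen IV genes followed each other from library to library. With group means removed, Col4a1 and Col4a2 had a Pearson r of 0.92 and a Spearman rho of 0.91 over 17 libraries (both permutation p = 1e-05, the smallest that the permutations can give; adjusted over 3 pairs, 3e-05). Without the Gcgr-labelled libraries 29 and 32, the farthest from the median of Col4a1, r was 0.90. Col4a3 and Col4a4 had an r of 0.85 (permutation p = 0.00011, adjusted 0.000165) and a rho of 0.81 (permutation p = 0.00015, adjusted 0.000225). Without the farthest libraries, Ctr shRNA 4 and Gcgr-labelled library 13, r was 0.78. The third pair behaved otherwise. Col4a5 and Col4a6, the latter at a mean of 0.343 FPKM, are 1308 bases apart on chromosome X. They had an r of 0.90 (permutation p = 0.00076, adjusted 0.00076) and a rho of 0.59 (permutation p = 0.0136, adjusted 0.0136). Leaving out Ctr shRNA 20 brought r to 0.12, and without Ctr shRNA 20 and 4, the farthest from the median, it was -0.14, so the relation rested on Ctr shRNA 20. Within a library all genes share the same FPKM scaling, which can raise the correlation of any pair of genes over libraries. Correlations were not computed for matrix genes that are not neighbours, so the part of genome position was not tested. Col1a1 and Col3a1, on chromosomes 11 and 1, also shared high libraries, as described above.

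Ratios within a pair were compared for 2 of the 3 pairs, since Col4a6 was far below Col4a5. The ratio of Col4a1 to Col4a2 was 1.06 to 1.17 in control, 1.19 to 1.33 in Ctr shRNA and 1.14 to 1.48 in the Gcgr-labelled libraries. Control and Ctr shRNA did not overlap (exact two-sided permutation p = 0.00476, the smallest that 210 splits allow; adjusted over 18 tests of 6 ratios, 0.0857). At that smallest p, a single test cannot pass the adjustment over 18. Against control, the ratio in the Gcgr-labelled libraries had an exact permutation p of 0.0182 (adjusted 0.164), and none of the 18 tests passed. The other ratios tested were Col1a1 to Col1a2, Col6a1 to Col6a2, Lamb1 to Lamb2 and Lama5 to Lamc1. The ratio of Col4a3 to Col4a4 was 0.775 to 0.881 in control and 0.776 to 1.21 in Ctr shRNA (exact permutation p = 0.243, adjusted 0.486).

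**Figure D5:**
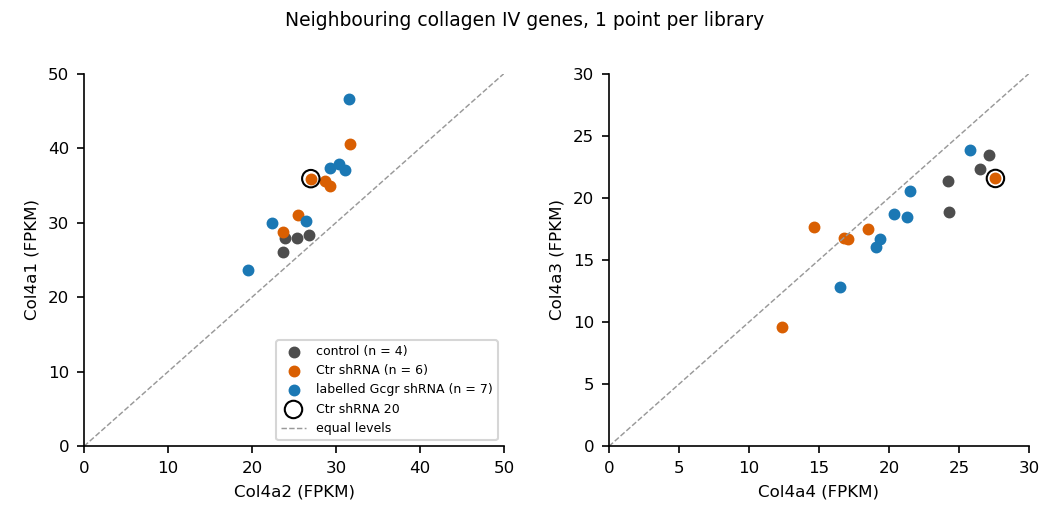
FPKM of Col4a1 against Col4a2 (left) and of Col4a3 against Col4a4 (right), 1 point per library coloured by group, with the line of equal levels and Ctr shRNA 20 ringed. Both pairs rise together (r of 0.92 and 0.85 with group means removed), and on the left the control libraries have ratios of 1.06 to 1.17 and the Ctr shRNA libraries of 1.19 to 1.33.

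Genes that make, bind or regulate the matrix were counted from 5 lists, in Ctr shRNA against control, where 7.49% of all genes passed. Of 27 tested matrix glycoproteins and proteoglycans, 1 rose and 1 fell, a share near that of all genes. Spp1, osteopontin, a secreted phosphoprotein of injured tubules, rose from 357 ± 52.8 FPKM (SD, n = 4) to 864 ± 326 (n = 6), by 1.18 ± 0.33 (adjusted p = 0.0402 by limma). Without Ctr shRNA 20 the difference was 1.16 and did not pass (0.0558). Fras1, which links epithelium to the underlying matrix, fell from 2.69 ± 0.429 to 1.70 ± 0.418 FPKM (-0.46 ± 0.13, adjusted p = 0.0444 by limma). Without that library the difference was -0.47 and did not pass (0.0534). Both were near the threshold, passing in 15 and 11 of 26 alternatives. Spp1 was also lost without any 1 control library or without Ctr shRNA 1, 4 or 8 (adjusted p up to 0.122). Fras1 was also lost without control 37, 38 or 39, Ctr shRNA 1, 4 or 6, or library 32 or 34 of the Gcgr-labelled group (adjusted p up to 0.157).

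Of 20 genes of collagen maturation, 1 rose and 1 fell, again near the 7.49% of all genes, and both passed without Ctr shRNA 20. Colgalt2, a transferase that adds galactose to collagen, fell from 2.87 ± 0.379 FPKM (SD, n = 4) to 1.52 ± 0.216 (n = 6), by 0.62 ± 0.12 on the log2 scale (adjusted p = 0.00436 by limma), in 26 of 26 alternatives. P4ha2, a prolyl hydroxylase subunit that acts on new collagen, rose from 4.01 ± 0.405 to 6.498 ± 1.15 FPKM (0.57 ± 0.14, adjusted p = 0.0211 by limma), in 23 of 26. It was lost without control 38 (0.0563) and without control 39 (0.0829).

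Of 6 genes of the plasminogen system, whose protease activates metalloproteinases and cuts matrix, 1 rose and 2 fell. Serpinf2, the plasmin inhibitor, fell from 167 ± 14.8 to 87.6 ± 15.3 FPKM (-0.94 ± 0.15, adjusted p = 0.00163 by limma), in 26 of 26 alternatives. Plau, urokinase, fell from 209 ± 15.4 to 134 ± 37.7 FPKM (-0.68 ± 0.17, adjusted p = 0.0238 by limma), in 20 of 26, and was lost without control 37, 39 or 41 or Ctr shRNA 4 (0.0509 to 0.0824). Serpine2, an inhibitor of urokinase and thrombin, rose from 1.71 ± 0.442 to 2.52 ± 0.304 FPKM (0.39 ± 0.11, adjusted p = 0.0423 by limma), in 12 of 26. It was lost without any of control 37, 38 and 39 or Ctr shRNA 1, 4, 6, 8 and 20, or without library 13 or 15 of the Gcgr-labelled group (0.0508 to 0.160), with a difference of 0.38 without Ctr shRNA 20. So an inhibitor and an activator of the same cascade were both lower. Of 18 matrix receptors and 17 genes of TGF beta signalling, 0 passed in either direction by limma. In the other comparisons, 0 genes of the 5 lists passed by limma.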

How the data were processed

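Whole kidney RNA of 17 mouse libraries was, per the labels' protocols, extracted with Trizol and converted to libraries by the SMARTER mRNA-Seq system. The authors deposited 1 table of FPKM values per gene, and the submitters' processing notes name the build GRCm38 (mm10). The sources used here do not give the aligner, counter, annotation release or whether strand was used. Low FPKM values of each library were whole multiples of 1 step per gene length (tolerance 0.05 of a step, 100% whole), which gave the reads behind each value. The scaling total that this step implies was 0.949 times the recovered reads in Gcgr-labelled library 32 and 1.15 times in Ctr shRNA 20, the extremes. The deposited FPKM were thus not scaled by recovered reads alone. A single incomplete line was left out.

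Groups were taken from the genotype label. The 13279 genes that reached an FPKM of 1 in 4 libraries or more were fitted as log2(FPKM + 1) with limma 3.58.1 (R 4.3.3), with all 3 groups in the fit and Benjamini-Hochberg adjustment, and the script was tested on simulated data. Ratios were compared with exact permutation tests and correlations with 100000 permutations (scipy 1.17.1). Alternatives were another pseudocount (0.1), other filters, scalings and fits, voom on the recovered reads, and each library left out. The comparisons share libraries pairwise.

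Genes named are, per comparison, each expressed matrix gene that passed or, where none did, the 3 smallest p-values on each side of 0. Added are the 2 highest of each class, the collagen IV pairs, the TIMPs and up to 3 passing genes per list. Others, such as those with groups apart or wide spread, were chosen after their values were seen. The members and lists were chosen with earlier results of these data known. A gene among the expressed matrix genes is counted but not reported here by name or drawn.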

Additional observations from a re-analysis of the deposited data

Results flagged for a closer look

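Of 117 sets of values, 1 per expressed matrix gene and group, 10 held a library far from the rest of its group, and chance marks about 1 group in 20. In Ctr shRNA 20, 4 basement membrane genes were the high values of their group: Lama5 at 24.38 FPKM, Lamb2 at 18.06, Col4a5 at 12.46 and Lamb3 at 11.7, where the next highest Ctr shRNA libraries had 16.5, 8.63, 5.35 and 1.35 FPKM. Lamb3 is among the expressed matrix genes only through that library. Lamb1 at 9.38 FPKM in Ctr shRNA 6 was low, with the next at 12.6. In control 39, Col4a5 at 5.401, Col14a1 at 2.714 and Lamb3 at 0.6872 FPKM were high, above the next controls at 4.58, 2.18 and 0.555. Adamts15 was low in control 41 at 1.646 FPKM, with the next control at 2.81, and high in Gcgr-labelled library 34 at 4.911, with the next at 3.22.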

How the results depend on the processing

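No paired analysis was possible because the groups share no library numbers. In Ctr shRNA against control, the count of matrix genes that rose (0) was 1 with a pseudocount of 0.1, 1 with a filter on a mean FPKM of 1 or more, 3 with library weights, and 0 to 1 with 1 library left out, where Mmp2 passed without Ctr shRNA 1, Ctr shRNA 19 or Gcgr-labelled library 32. Mmp2 was also the gene that rose with that pseudocount and with that filter, and it was among the 3 that rose with library weights. It is among the expressed matrix genes only through Ctr shRNA, the group where it is high. The count that fell (2) was 0 with no filter, 1 with median ratio scaling, 0 with the same protein-coding total in each library, 1 with 2 groups in the fit, 1 with voom and 3 with library weights. It was 0 to 2 with 1 library left out, and 0 without control 38, 39 or 41 or Ctr shRNA 6. In either direction the pseudocount called 7.69% of the matrix genes (1032 of 13279 genes) and the filter 7.69% (983 of 12444). Library weights called 15.4% (2087 of 13279), and all 3 shares were near those of all genes. Median ratio scaling, 2 groups in the fit and voom each called 2.56% (1027, 762 and 1066 of 13279). With no filter 597 of 31784 genes passed, and 898 of 13279 with the same protein-coding total. Without Ctr shRNA 20, ranges that did not overlap numbered 4 in place of 2 among lower genes, and 1 in place of 0 among genes higher in the Gcgr-labelled libraries than in Ctr shRNA. The r of Col4a5 with Col4a6 was 0.12 without Ctr shRNA 20 and -0.14 without Ctr shRNA 20 and 4. The log2 ratio of Col4a1 to Col4a2 between the Gcgr-labelled libraries and Ctr shRNA was 0.03, and -0.0117 to 0.0496 with 1 library of these groups left out, below 0 only without library 29. That alternative was chosen after seeing the data. The causes were not tested.

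Over all genes, the 994 calls in Ctr shRNA against control became 597 with no filter, 2087 with library weights and 458 to 1265 with 1 library left out. The lowest were 458, 480 and 490 without control 39, 38 and 37. The 268 calls in the Gcgr-labelled libraries against control became 155 with no filter, 438 with 2 groups in the fit, 1070 with library weights and 105 to 349 with 1 library left out, with 105 without control 39. The 0 calls between the shRNA groups became at most 3, without Gcgr-labelled library 13. With 4 controls, any 1 of them can end a call near the threshold, and genes near 1 FPKM such as Mmp2 rest on few reads.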
